A study of Homo sapiens with 6 samples.

Results

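Polyamine metabolism is described here through 10 genes, ODC1, AMD1, SRM, SMS, SAT1, SMOX, PAOX, OAZ1, OAZ2 and AZIN1, taken from a table of 15024 genes by an exact match of the gene symbol. All 10 were in the table and all 10 passed the filter on low values. The list was drawn up with the difference between the sorted populations already known, so the values of its members are given as a description.

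RNA was sequenced from 6 libraries of MDA-MB-231, a long-established line of human triple-negative breast cancer cells with mesenchymal features. All 6 came from cells labelled as null for MLL3, the histone methyltransferase encoded by KMT2C, and all were kept for 14 days in 10 µM forskolin, which activates adenylyl cyclase and so raises cAMP. The population studied was CD44-positive with high surface CD104, the integrin β4 protein (CD104high, called hybrid EMT by the submitters, n = 3), and it was set against the CD44-positive population with low or no CD104 (CD104low, called mesenchymal, n = 3). The sources used here do not say whether the MLL3-null cells derived from 1 clone, no library without forskolin was analysed here, and wild-type cells were not analysed here. The labels name biological replicates without a culture, batch or day, so spreads and p-values measure the differences between these samples only.

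Polyamines (putrescine, spermidine and spermine) are small, positively charged molecules that bind nucleic acids and are needed for translation and growth. Ornithine decarboxylase, encoded by ODC1, makes putrescine from ornithine and is the rate-limiting enzyme of the pathway, AMD1 supplies the aminopropyl donor, and SRM and SMS use that donor to build spermidine and then spermine. SAT1, PAOX and SMOX run the chain backwards, antizymes (OAZ1, OAZ2) deliver ornithine decarboxylase to the proteasome, and AZIN1 frees it by binding antizyme. ODC1 is a textbook target of MYC, is inducible by cAMP in many cell types, and is often abundant in breast tumours.

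The upstream sequences of the 3 synthesis genes with the lowest log2 fold changes are shown because these genes moved the same way and because ODC1 is known for binding sites of MYC (E-boxes) and of cAMP-responsive factors. Of the 10 members, 7 had windows around transcription starts in RefSeq (GRCh38.p14): ODC1 had 2, AMD1 had 3, and SRM, SMS, SAT1, OAZ1 and OAZ2 had 1 each. Capitals mark 3 motifs. The E-box bound by MYC was searched as CACGTG. The short form of the cAMP response element was searched as TGACG, and its other strand stands in capitals in AMD1. The TATA motif was searched as the letters TATAA. Each sequence is written on the strand of its gene. The ODC1 upstream sequence is the minus strand of chr2:10448328-10448577, part of which GENCODE 29 counts as the first exon of its longest ODC1 transcript. The stretch with both ODC1 E-boxes is the minus strand of chr2:10447987-10448061, inside the first intron of that transcript. The SRM sequence is the minus strand of chr1:11060192-11060237, and the AMD1 sequence is the plus strand of chr6:110874705-110874784.
ODC1 upstream: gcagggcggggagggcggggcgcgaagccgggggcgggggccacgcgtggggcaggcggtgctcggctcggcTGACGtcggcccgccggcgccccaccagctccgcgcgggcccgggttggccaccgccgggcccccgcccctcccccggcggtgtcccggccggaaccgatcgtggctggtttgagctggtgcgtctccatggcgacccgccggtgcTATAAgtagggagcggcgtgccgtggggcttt
ODC1 intron: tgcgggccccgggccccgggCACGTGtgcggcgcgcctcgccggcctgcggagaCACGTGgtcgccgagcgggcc
SRM upstream: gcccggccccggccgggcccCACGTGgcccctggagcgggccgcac
AMD1 upstream: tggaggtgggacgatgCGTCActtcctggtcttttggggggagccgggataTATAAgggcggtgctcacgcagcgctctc
The search covered both strands for the E-box and the cAMP response element, and the strand of the gene for the TATA motif. The full cAMP response element, searched as TGACGTCA, contains the short form. Of 35116 RefSeq windows of the same length, 7.26% held the E-box, 24.55% the short form, 1.85% the full element and 14.83% the TATA motif. These shares are per window, so a gene with several windows has more chances of a match. Among the members, the E-box was found in 1 window each of ODC1 and SRM, the short form in those of ODC1, AMD1, SMS and SAT1, and the TATA motif in those of ODC1, AMD1 and OAZ1. None of the members' windows held the full element. A match describes letters in a window and does not show that a factor is bound there.

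ODC1 stood well apart from the other members. Its level is a scaled read count, the reads of a gene divided by a size factor of the library. ODC1 (ENSG00000115758.13, chr2:10439968-10448504, minus strand, GRCh38) had 6209.6, 5812 and 6444 scaled reads in the CD104high libraries, against 18443, 15267 and 17253 in the CD104low libraries. Every CD104high library held less than the lowest CD104low library, and the gap between the groups was several times the spread within either. The means were 6155 ± 319 in CD104high and 16988 ± 1605 in CD104low (n = 3 each, SD). On the log2(value + 1) scale the difference was -1.46 (SE 0.08), which is 2.75-fold lower in CD104high. Counting from the most negative log2 fold change, ODC1 stood at rank 35 among the 14420 genes tested. It stood at rank 4 among the 7961 with a mean of at least 1000 scaled reads. No listed gene had a value of 0 in any library, so genes without reads in some library could not enter these ranks. The authors' deposited table gives ODC1 a log2 fold change of -1.46 with a standard error of 0.11, and places it at rank 4 by p-value. Across the 6 settings that each left out 1 library the log2 difference stayed between -1.54 and -1.40. The ODC1 locus also holds the small nucleolar RNA SNORA80B, and processed pseudogenes of ODC1, AMD1 and SRM are annotated. The sources used here do not say how reads shared with such copies were split.

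**Figure D1:**
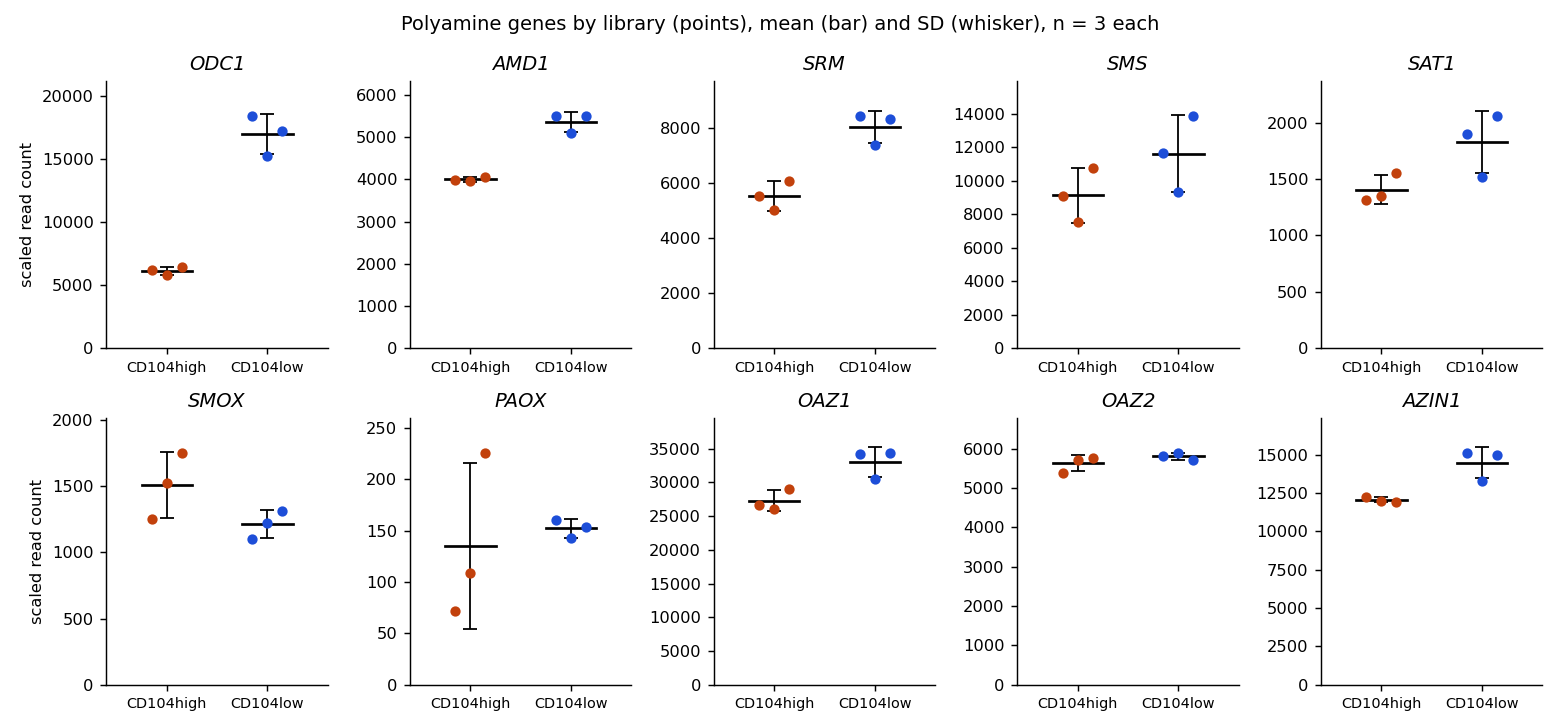
Scaled read counts (y axis, from 0, its own scale in each panel) of the 10 polyamine genes in each library, with CD104high in orange at the left and CD104low in blue at the right of each panel; bars are means and whiskers SDs, n = 3 each. ODC1 sits between 5812 and 6444 in CD104high and between 15267 and 18443 in CD104low, while SMS, SAT1, SMOX, PAOX and OAZ2 overlap between the populations.

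Over all 10 members, 6 were called lower in CD104high (ODC1, AMD1, SRM, SAT1, OAZ1 and AZIN1), and 4 (SMS, SMOX, PAOX and OAZ2) did not pass. A call is a Benjamini-Hochberg adjusted p under 0.05 in limma, fitted over all genes. Of all genes tested, 43.4% were called, 21.6% lower and 21.8% higher. Since the members were chosen with this contrast known, nothing is read from their count. The log2 difference was negative for 9 of 10 members, and its median was -0.34, against 0.02 over all genes tested. ODC1 was the 1 member whose difference exceeded 1 log2 unit. In 5 members (ODC1, AMD1, SRM, OAZ1 and AZIN1) every CD104high library lay below every CD104low library, a pattern that 26.9% of all tested genes showed in that direction and 54.3% in either. The authors' deposited table calls 7 of the 10, the 6 above and SMS, all lower, where 45.7% of its genes with an adjusted p-value are called.

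**Figure D2:**
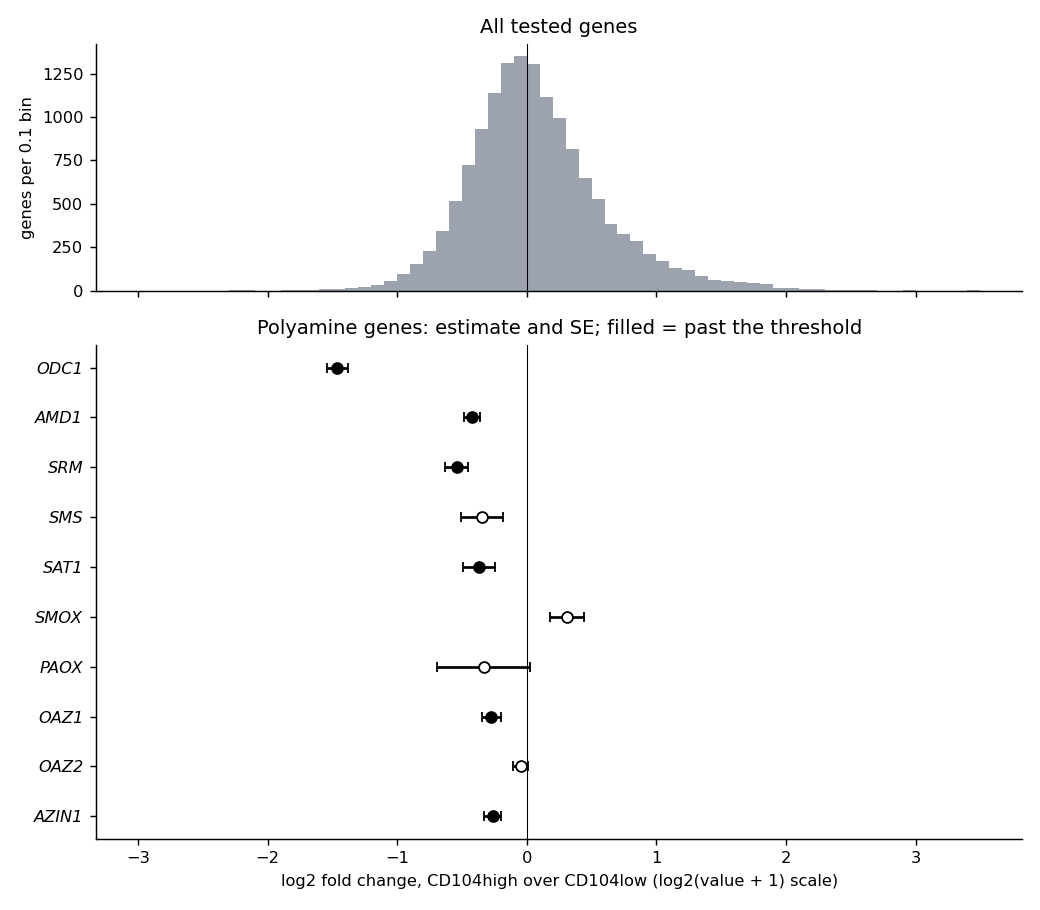
Log2 fold change of CD104high over CD104low (x axis, log2(value + 1) scale) for all 14420 tested genes as a histogram (y axis, genes per bin) above the 10 polyamine genes with their SEs; filled points passed the adjusted p threshold of 0.05. ODC1 at -1.46 lies in the left tail, and the other members lie between -0.54 and 0.31.

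AMD1 and SRM, the enzymes that feed and carry out spermidine synthesis, were lower in CD104high by less than 1.5-fold. AMD1, S-adenosylmethionine decarboxylase (chr6:110874770-110895713, plus strand), had 3986, 3958 and 4057 scaled reads in CD104high, against 5493, 5094 and 5506 in CD104low. The CD104high libraries were nearly equal and all lay below the CD104low ones, with a log2 difference of -0.42 (SE 0.06). A correction for transcript length and GC content reduced it to -0.24. SRM, spermidine synthase (chr1:11054584-11060024, minus strand), had 5503, 4994 and 6058 scaled reads in CD104high, against 8424, 7352 and 8296 in CD104low. Its groups did not overlap either, and the log2 difference was -0.54 (SE 0.09).

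SMS, spermine synthase, which makes spermine from spermidine (chrX:21940573-21994835, plus strand), had 9078, 7529 and 10772 scaled reads in CD104high, against 11673, 9313 and 13879 in CD104low. Replicate 3 of CD104high exceeded replicate 2 of CD104low, and within each population replicate 3 was the highest and replicate 2 the lowest. The log2 difference of -0.35 (SE 0.16) did not pass the threshold, though it did without CD104high replicate 3 (-0.47) or without CD104low replicate 2 (-0.50). It also passed with the replicate number as a block (limma adjusted p = 0.000298), although the labels do not give the numbers as pairs. It shrank to -0.21 without CD104high replicate 2 or without CD104low replicate 3, and to -0.19 after the length and GC correction.

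The catabolic enzymes did not share a direction. SAT1, the acetyltransferase that marks spermidine and spermine for breakdown or export (chrX:23783173-23786226, plus strand), had 1316, 1349 and 1551 scaled reads in CD104high, against 1903, 1519.6 and 2061 in CD104low. Replicate 3 of CD104high lay just above replicate 2 of CD104low, and the log2 difference of -0.37 (SE 0.12) passed the threshold. The call was lost without CD104high replicate 1, without CD104high replicate 2, without CD104low replicate 1, without CD104low replicate 3 and in limma without the intensity trend. It was also lost after the length and GC correction, which left a log2 difference of -0.05.

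SMOX, spermine oxidase, which turns spermine directly back into spermidine (chr20:4120980-4187747, plus strand), had 1256, 1528 and 1754 scaled reads in CD104high, against 1100.2, 1224 and 1309 in CD104low. It was the only member with a positive log2 difference, 0.31 (SE 0.13), and did not pass the threshold, with replicate 1 of CD104high below replicate 3 of CD104low. The difference was 0.44, and called, without CD104high replicate 1, and 0.20 without CD104high replicate 3. With the replicate number as a block SMOX was also called (limma adjusted p = 0.00571). PAOX, the peroxisomal oxidase of acetylated polyamines (chr10:133379234-133391694, plus strand), was the least abundant member, with 71.4, 109 and 226 scaled reads in CD104high, against 161, 143 and 154 in CD104low. The CD104high libraries spread on both sides of the CD104low ones, and the log2 difference of -0.33 (SE 0.36) did not pass. Without CD104high replicate 3 it was -0.78 and called, without CD104high replicate 1 it was 0.04, and with all 6 libraries it was -0.60 after quantile normalization, -0.19 in edgeR and -0.18 in DESeq2. At a minimum of 78 reads in a library PAOX is the member measured with the least precision. On the same strand PAOX overlaps AL360181.3, annotated as protein-coding, which was not among the listed genes. The sources used here do not say how shared reads were split.

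The antizymes and the antizyme inhibitor act on the ornithine decarboxylase protein. OAZ1 and OAZ2 are made only when ribosomes shift frame at a stop codon, a step that polyamines promote, and messenger RNA levels do not measure it. The frameshift sites of both genes are shown because they are the point at which polyamines act on these messages, with the stop codon of the first frame in capitals. The OAZ1 site is the plus strand of chr19:2271431-2271457 and the OAZ2 site the minus strand of chr15:64691501-64691527, both inside coding exons of GRCh38.
OAZ1 frameshift site: cggtggtgctccTGAtgcccctcaccc
OAZ2 frameshift site: ctgtggtgctccTGAtgcccctcaccc
The 2 sites differ at 1 of 27 bases, and the stop codon follows 68 codons in OAZ1 and 32 codons in OAZ2.

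OAZ1 (chr19:2269509-2273490, plus strand) had 26698, 26099 and 29085 scaled reads in CD104high, against 34142, 30458 and 34420.5 in CD104low. The groups did not overlap, and the log2 difference was -0.27 (SE 0.07), which passed the threshold but did not without CD104high replicate 1, CD104high replicate 2, CD104low replicate 1 or CD104low replicate 3. OAZ2 (chr15:64687573-64703281, minus strand) had 5394, 5716 and 5770.0 scaled reads in CD104high, against 5806, 5902 and 5715 in CD104low. These ranges overlapped, and the log2 difference of -0.05 (SE 0.06) did not pass, although after the length and GC correction it was -0.26 and called, and after quantile normalization it had the opposite sign at 0.000146. AZIN1, an inactive relative of ornithine decarboxylase that binds antizyme, had 12229, 12004 and 11915 scaled reads in CD104high, against 15126, 13306 and 14963 in CD104low. The groups did not overlap and the log2 difference of -0.26 (SE 0.07) passed the threshold, but did not without CD104low replicate 1. OAZ1 overlaps JSRP1, listed at a mean of 11.4 scaled reads, on the opposite strand, and the labels do not say if strand entered the counting. On the same strand OAZ1 overlaps AC005258.1, annotated as protein-coding, which was not among the listed genes.

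Ratios taken within a library show how unequally the members changed and do not depend on the scaling between libraries, though they are not corrected for transcript length and GC content. ODC1 gave 23.3, 22.3 and 22.2 reads per 100 reads of OAZ1 in CD104high, against 54.0, 50.1 and 50.1 in CD104low. The means were 22.6 ± 0.61 in CD104high and 51.4 ± 2.25 in CD104low (n = 3 each, SD), with a wide gap between groups. Per 100 reads of AZIN1, ODC1 gave 50.8, 48.4 and 54.1 in CD104high, against 122, 115 and 115 in CD104low, again without overlap. AZIN1 per 100 reads of OAZ1, by contrast, was 44.3 ± 2.85 in CD104high and 43.8 ± 0.43 in CD104low, a difference smaller than the spread within CD104high. The log2 fold change of AZIN1 minus that of OAZ1 was 0.01, and 0.18 after the length and GC correction. SMOX per 100 reads of SAT1 was 95.4, 113 and 113 in CD104high, against 57.8, 80.6 and 63.5 in CD104low, higher in every CD104high library than in any CD104low library. The difference between the SMOX and SAT1 log2 fold changes was 0.68, and 0.28 after the length and GC correction. SMS per 100 reads of SRM was 165 ± 13.5 in CD104high and 144 ± 20.9 in CD104low, with overlapping libraries, and the difference of their log2 fold changes was 0.20, or 0.31 after that correction. Since transcript length is not divided out, each ratio is compared between the populations and not with another ratio.

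**Figure D3:**
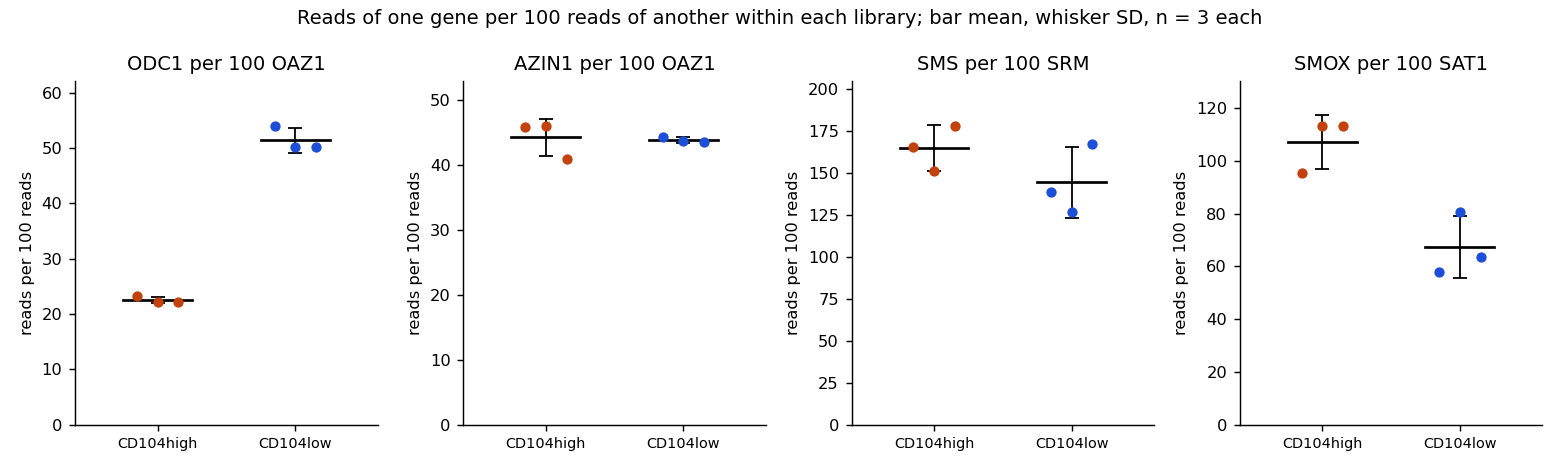
Reads of one polyamine gene per 100 reads of another in the same library (y axis, from 0), with CD104high in orange at the left and CD104low in blue at the right; bars are means and whiskers SDs, n = 3 each. ODC1 per 100 OAZ1 averages 22.6 in CD104high and 51.4 in CD104low, whereas AZIN1 per 100 OAZ1 averages 44.3 in CD104high and 43.8 in CD104low.

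Levels were compared between genes as scaled reads per kilobase of the longest principal transcript in GENCODE 29. OAZ1 was the most abundant message at 23776 ± 1376 per kilobase in CD104high and 28752 ± 1927 in CD104low, and PAOX the least at 72.8 ± 43.5 in CD104high and 82.0 ± 4.98 in CD104low (n = 3 each, SD). In CD104low, ODC1 at 6403 ± 605 per kilobase stood level with SRM at 6338 ± 462 and SMS at 6326 ± 1243, differing by less than their spread. In CD104high, ODC1 was 2320.2 ± 120.4 per kilobase, below SMS at 4968 ± 883 and SRM at 4359 ± 420.2, which did not differ beyond their spread, and below OAZ2 at 2909 ± 105 and AZIN1 at 2552 ± 34.2. In CD104low, OAZ2 at 3003 ± 48.2 and AZIN1 at 3064 ± 213 did not differ beyond their spread and both lay below ODC1. SAT1 (1319.8 ± 119 in CD104high, 1716 ± 261 in CD104low), AMD1 (1164 ± 14.7 in CD104high, 1560.3 ± 68.2 in CD104low) and SMOX (677 ± 112 in CD104high, 542 ± 47.1 in CD104low) followed. The gap between SAT1 and AMD1 was smaller than the SD of SAT1 in CD104low and larger in CD104high. The order depends on the transcript chosen, since principal transcripts of ODC1 range from 1943 to 2653 bases and those of AZIN1 from 2857 to 4721 bases.

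The neighbouring steps of the pathway were read from lists of 50 genes, of which 38 were in the table and tested. Of the 38, 9 were higher in CD104high, 13 were lower and 16 did not pass limma's test with adjustment over all genes, and the median log2 difference was -0.14. Of all genes tested, 21.8% were higher and 21.6% lower. The other listed genes, MTAP of methylthioadenosine salvage among them, were not analysed here.

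In the supply of arginine and ornithine, 6 of 12 genes fell, 1 rose and 5 did not pass, with a median log2 difference of -0.27. ARG2 is a mitochondrial arginase and makes ornithine, the substrate of the ODC1 enzyme, whose source in these cells was not tested. ARG2 had 261, 283 and 173 scaled reads in CD104high, against 649, 616 and 615 in CD104low. Its log2 fold change was -1.42 (SE 0.18), with an adjusted p of 0.000702 in limma. ARG2 overlaps VTI1B on the opposite strand, which averaged 2693.7 scaled reads, so ARG2 reads are uncertain if strand was not used. SLC7A2, a transporter of arginine and other cationic amino acids, had 1449, 1298 and 1299 scaled reads in CD104high, against 2564, 2616 and 2582 in CD104low (log2 fold change -0.94, SE 0.07, limma adjusted p = 0.000202). Replicates of SLC7A2 were close within both populations. ASS1, which makes argininosuccinate for arginine synthesis, went the other way, with 884, 897 and 1211 scaled reads in CD104high, against 482, 605 and 523 in CD104low (log2 fold change 0.88, SE 0.15, limma adjusted p = 0.00197). The others that fell were AGMAT, ALDH18A1, SLC25A15 and SLC7A1, with log2 fold changes between -0.57 and -0.25.

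In the methionine cycle, which supplies the substrate of AMD1, and in the salvage of the methylthioadenosine that SRM and SMS release, 4 of 11 genes fell, 2 rose and 5 did not pass, with a median log2 difference of -0.07. ENOPH1, a salvage enzyme, had 3573, 3745 and 3679 scaled reads in CD104high, against 6786, 5548 and 6516 in CD104low (log2 fold change -0.77, SE 0.08, limma adjusted p = 0.000394). MTRR, which reactivates methionine synthase, had 2661, 2558 and 2433 scaled reads in CD104high, against 4296, 3835 and 4202 in CD104low (log2 fold change -0.69, SE 0.07, limma adjusted p = 0.000351). Both genes separated the populations completely. MTR, the methionine synthase itself, rose, with 3936, 3837 and 3625 scaled reads in CD104high, against 2721, 2909 and 3014 in CD104low. Its log2 fold change was 0.40 (SE 0.07, limma adjusted p = 0.00235), and 0.17 after the length and GC correction. AHCY, the enzyme that clears S-adenosylhomocysteine, fell, averaging 12955 ± 1041 scaled reads in CD104high and 18725 ± 1490.3 in CD104low without overlap (n = 3 each, SD; log2 fold change -0.53, SE 0.08, limma adjusted p = 0.0015). Its relative AHCYL2 averaged 958 ± 100 scaled reads in CD104high and 736 ± 76.1 in CD104low (n = 3 each, SD), a log2 fold change of 0.38 (SE 0.12) with a limma adjusted p of 0.0279. That call was lost without CD104high replicate 1 or 3, without CD104low replicate 1 or 2, and after the length and GC correction. MAT2A, which makes S-adenosylmethionine in most tissues, averaged 8725 ± 405 scaled reads in CD104high and 9173 ± 284 in CD104low (n = 3 each, SD). Its log2 difference of -0.07 (SE 0.06, limma adjusted p = 0.363) did not pass, and the libraries overlapped.

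In polyamine transport 5 of 8 genes rose, 1 fell and 2 did not pass, with a median log2 difference of 0.37. The number called higher was not stable: it was 1 in limma without the trend, 2 after the length and GC correction, 3 in edgeR, and 2 or 3 with any 1 library left out. SLC22A3, an organic cation transporter that carries polyamines, had 189, 254 and 272 scaled reads in CD104high, against 81.5, 141 and 144 in CD104low (log2 fold change 0.99, SE 0.25, limma adjusted p = 0.0132). GPC1, the heparan sulphate proteoglycan glypican-1 implicated in polyamine uptake, had 5738, 4981 and 7697 scaled reads in CD104high, against 4100.2, 3482 and 4535 in CD104low. Its log2 fold change was 0.59 (SE 0.16, limma adjusted p = 0.0157), a call that was lost without CD104low replicate 1, in limma without the trend and after the length and GC correction. SLC12A8 and ATP13A2 also rose, with log2 fold changes of 0.54 and 0.20. SLC47A1, at 31.4 to 116 scaled reads, had a log2 fold change of 0.96 (SE 0.34) and passed narrowly, with a limma adjusted p of 0.0497. ATP13A3, a polyamine-transporting ATPase, fell, with 12059.5, 11966 and 13003 scaled reads in CD104high, against 14979, 13876 and 15502 in CD104low (log2 fold change -0.26, SE 0.07, limma adjusted p = 0.0127). The ATP13A3 call was lost without CD104high replicate 1, CD104low replicate 1 or CD104low replicate 3. SLC3A2, an abundant amino acid transporter subunit linked to polyamine export, had 48521, 46754 and 49415 scaled reads in CD104high, against 50523, 42227 and 55436 in CD104low. These ranges overlapped (log2 difference -0.03, SE 0.10, limma adjusted p = 0.848), and quantile normalization turned the sign.

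Hypusination uses spermidine to modify the translation factor eIF5A, and 2 of its 4 genes fell and 2 did not pass, with a median log2 difference of -0.42. EIF5A had 25587, 25872 and 26786 scaled reads in CD104high, against 40217, 35019.9 and 37629 in CD104low (log2 fold change -0.53, SE 0.07, limma adjusted p = 0.000674). DOHH, the hydroxylase of the last step, had 2189, 2380.2 and 2315 scaled reads in CD104high, against 3426, 3244 and 3555 in CD104low (log2 fold change -0.57, SE 0.07, limma adjusted p = 0.000561). In both genes the populations were fully separated. DHPS, deoxyhypusine synthase (log2 difference -0.31), and EIF5A2, the second eIF5A gene (0.27), did not pass.

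Among further regulators 1 of 3 genes rose and 2 did not pass, with a median log2 difference of 0.10. AZIN2, the other antizyme inhibitor, had 2048, 2369.6 and 2236 scaled reads in CD104high, against 1415, 1709.7 and 1338 in CD104low. The AZIN2 log2 fold change was 0.58 (SE 0.11, limma adjusted p = 0.00301), opposite in sign to that of AZIN1, and 0.35 after the length and GC correction. OAZ3, an antizyme of the testis, was listed at between 5.49 and 12.4 scaled reads.

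MYC, the transcription factor for which ODC1 is a known target, had 5788, 5159 and 5173 scaled reads in CD104high, against 9179.8, 8032 and 8417 in CD104low. The MYC log2 fold change was -0.67 (SE 0.07, limma adjusted p = 0.000449), with no overlap between the populations. Within a library, ODC1 gave 115 ± 8.85 reads per 100 reads of MYC in CD104high and 199 ± 7.70 in CD104low (n = 3 each, SD), so ODC1 was lower in CD104high also relative to MYC. Of the 7 genes of the MYC network tested, 2 rose, 1 fell and 4 did not pass, with a median log2 difference of 0.21. The shares over all genes tested were 21.8% higher and 21.6% lower, and nothing is read from this count. MXD4, a MAX partner that represses MYC targets, averaged 9322 ± 637 scaled reads in CD104high and 6771 ± 722 in CD104low (n = 3 each, SD), a log2 fold change of 0.46 (SE 0.09) with a limma adjusted p of 0.00343, or 0.28 after the length and GC correction. MNT, another such repressor, averaged 1364 ± 28.1 scaled reads in CD104high and 1033 ± 175 in CD104low (n = 3 each, SD), a log2 fold change of 0.41 (SE 0.12) with a limma adjusted p of 0.0228. The MNT call was lost in limma without the trend, after the length and GC correction (0.16), and without CD104high replicate 1 or 2 or CD104low replicate 1 or 3.

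**Figure D4:**
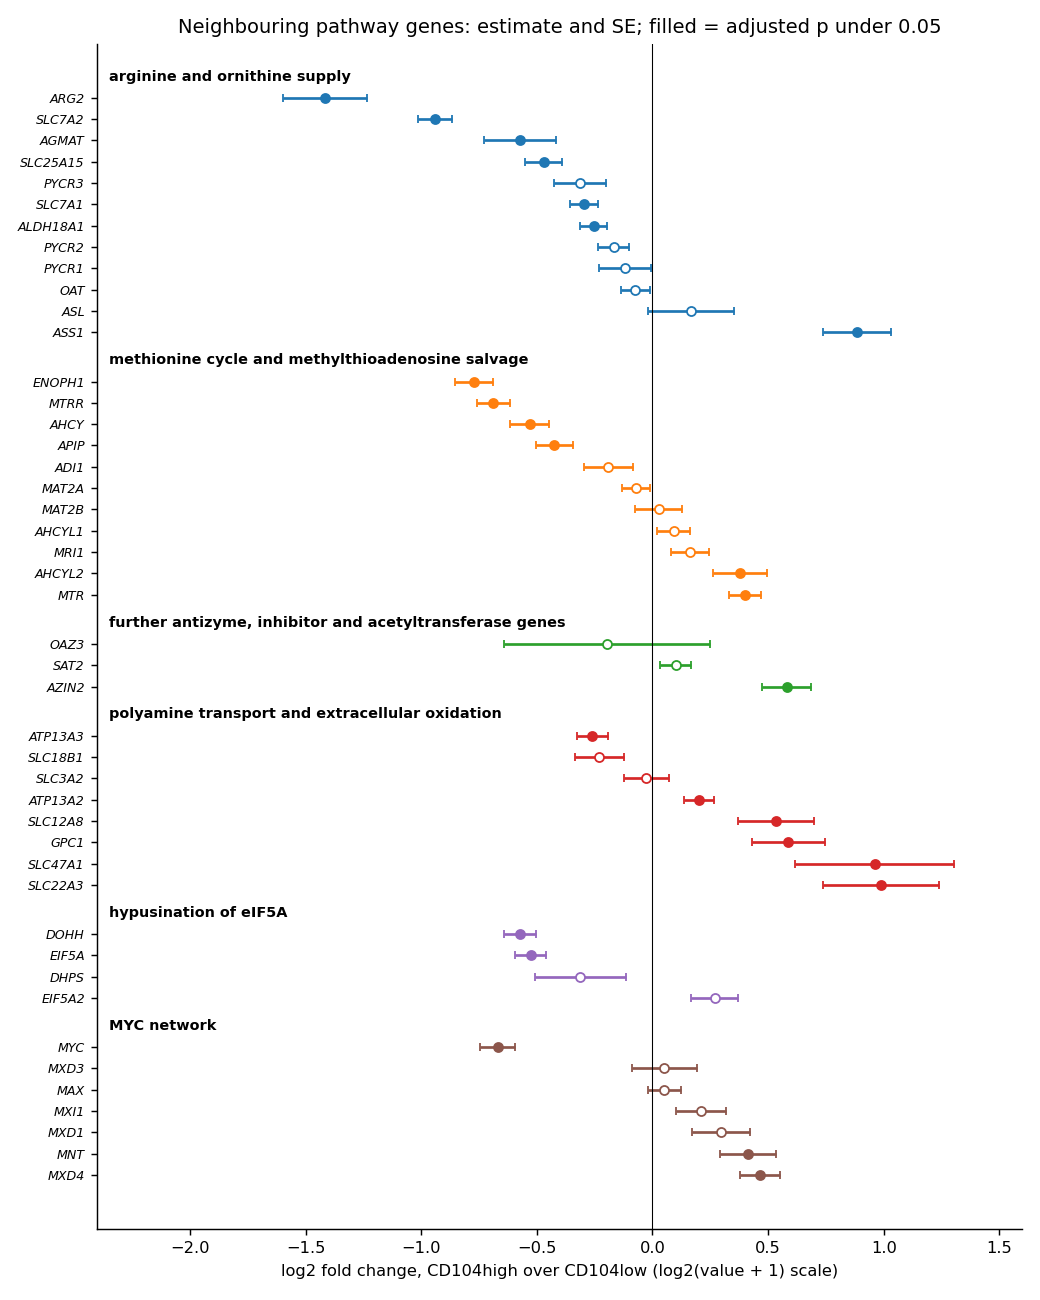
Log2 fold change of CD104high over CD104low with its SE (x axis, log2(value + 1) scale) for the 38 neighbouring pathway genes and the 7 MYC network genes, grouped by list; filled points passed an adjusted p of 0.05. ARG2 at -1.42 is the lowest point, and SLC22A3 at 0.99 the highest.

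The genes whose profiles were most like that of ODC1 were sought among the 11704 genes with a mean of at least 100 scaled reads, by the root mean square difference between centred log2 profiles over the 6 libraries. The closest was NDUFAF4, an assembly factor of respiratory complex I, at 0.096 log2 units, with 639.8, 653 and 722 scaled reads in CD104high, against 2022, 1421 and 1886 in CD104low. PDSS1, which builds the side chain of coenzyme Q, followed at 0.111 and averaged 586 ± 58.3 scaled reads in CD104high and 1431 ± 188 in CD104low (n = 3 each, SD). The noncoding RNA LINC02742 (0.131), the synthetase complex component EEF1E1 (0.140) and DCAF13 (0.155), which is needed for ribosomal RNA maturation, came next. After the length and GC correction the log2 differences of EEF1E1 and LINC02742 shrank to -0.73 and -0.78, against -1.25 and -1.28 as reported, while that of ODC1 was -1.47, and the likeness itself was not recomputed under that setting. In all 5, as in ODC1, replicate 2 was the lowest of the CD104low libraries. The 5 were picked by their likeness over these same libraries, so nothing is read from that shared order. CD104low replicate 2 was also the lowest of its group in AMD1, SRM, SMS, SAT1, PAOX, OAZ1 and AZIN1, but not in SMOX or OAZ2. The cause was not tested. These likenesses rest on 6 libraries of 2 groups and describe profiles only.

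**Figure D5:**
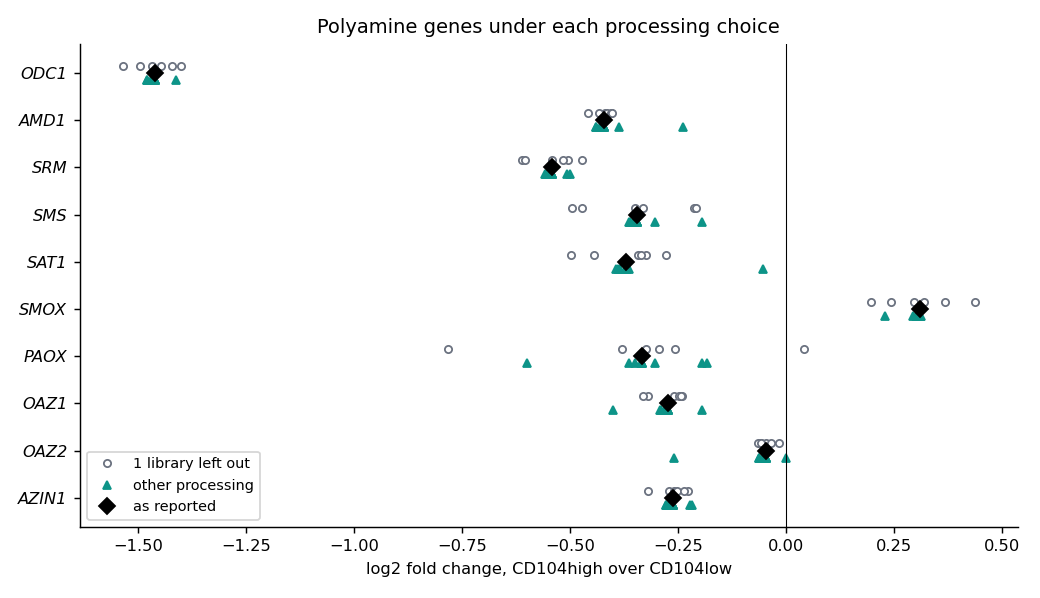
Log2 fold change of CD104high over CD104low (x axis) for each polyamine gene as reported (black diamonds), under 11 other processing settings (green triangles) and with each of the 6 libraries left out (open circles). ODC1 stays between -1.54 and -1.40 when a library is left out, whereas PAOX spans -0.78 to 0.04.

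The labels and libraries were checked on other genes. ITGB4, which encodes the sorted protein CD104, averaged 16463 ± 2616 scaled reads in CD104high and 1699 ± 503 in CD104low (n = 3 each, SD). Its CD104low libraries held 1492, 2273 and 1333 scaled reads, so replicate 2 lay nearest to CD104high. The ITGB4 log2 fold change was 3.30, and 3.53 without CD104low replicate 2. CD44 averaged 25592 ± 3169 in CD104high and 24650.5 ± 1232 in CD104low (n = 3 each, SD). KMT2C, the gene for which the cells are labelled null, had reads in all 6 libraries. It averaged 3816 ± 221 scaled reads in CD104high and 2507 ± 371 in CD104low without overlap (log2 fold change 0.62, SE 0.11, limma adjusted p = 0.0027). After the length and GC correction its log2 fold change was 0.31. A value over the whole gene does not check that label. Among line markers, VIM averaged 21251 ± 1831 scaled reads in CD104high and 20323 ± 386 in CD104low (n = 3 each, SD). KRT18 averaged 16406.5 ± 1934 in CD104high and 12905 ± 304 in CD104low. ERBB2, planned as low or absent in a triple-negative line, averaged 8165 ± 409 in CD104high and 6519 ± 430 in CD104low. KRT18 and ERBB2 were called higher in CD104high (limma adjusted p = 0.0122 and 0.00621). ESR1 and PGR were not among the listed genes. Recovered reads ranged from 49791498 to 60069719 per library over the listed genes. Of 8 leukocyte markers, 2 (CD14 and LAPTM5) were in the table, with a summed level of 679 to 936 in CD104high and 320 to 404 in CD104low. Of 5 endothelial markers 3 were in it, at 71.4 to 114 in CD104high and 59.3 to 95.5 in CD104low. All 5 stromal markers were in it, at 3269 to 4025 in CD104high and 1909.8 to 2291 in CD104low, with DCN and PDGFRA at no more than 11.2 scaled reads in any library. The 7 mitochondrial transcripts summed to between 1079910 and 1182110 in CD104high and between 1042690 and 1207660 in CD104low. The leukocyte and stromal sums were higher in every CD104high library, and their part in the differences above was not tested. The endothelial sums overlapped between the populations, as did the mitochondrial ones. In bulk samples fewer cells of a type and less RNA per cell cannot be told apart.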

How the data were processed

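RNA sequencing libraries of 3 CD104high and 3 CD104low samples were analysed. FastQC, DESeq2, Salmon 1.3.0 and the build GRCh38 (hg38) stand in the submitters' processing notes, but the sources used here do not give their order, the annotation, the filters or the model. The deposited columns hold, per the file headers, a scaled read signal per gene and library, a log2 fold change with its standard error, and p-values before and after adjustment. Within each library, all values (100%) were whole multiples of 1 step within 0.01 reads, so whole reads were recovered. For CD104low replicates 1 and 2 the step was too near 1 for an automatic check. If Salmon made them, these are rounded estimates.

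The deposited signal was tested as log2(value + 1) with limma 3.58.1 in R 4.3.3, with an intensity trend and population as the only term, for genes at 10 or more in at least 3 libraries. The pseudocount of 1 understates changes of low genes. P-values were adjusted by Benjamini-Hochberg over 14420 genes at a threshold of 0.05. The procedure was run on simulated data with independent libraries and the same dispersion for every gene. Real libraries can differ from that setting, so the run does not check the calls made here. The alternatives were edgeR 4.0.16 and DESeq2 1.42.0 on recovered reads, TMM scaling, quantile normalization, no filter or one at 50, pseudocounts of 0.5 and 10, no trend, a length and GC correction (GENCODE 29, 99.8% of genes matched), the replicate number as a block, and each library left out.

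Members and lists were chosen with earlier results of these data known. Named genes are all members, up to 2 called genes in each direction with the smallest p from each list, MYC, MTAP, EIF5A, MAT2A, ARG2 and SLC3A2, the label checks, and the 5 profiles nearest to ODC1. Other genes that make up a short count were named after their values were seen. Replicates of a population were not copies of 1 library, since their recovered reads differed by 12.7 to 44.6 times the sampling variance per degree of freedom.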

Additional observations from a re-analysis of the deposited data

How the results depend on the processing

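Each result was recomputed under 11 other settings and with each of the 6 libraries left out. Of the 170 member values this gave, 150 kept their direction and their side of the threshold, 11 fell short of the threshold, 7 newly passed it and 2 changed sign. ODC1, AMD1 and SRM kept theirs in all 17. The values that changed sign were PAOX without CD104high replicate 1 (0.042; range -0.78 to 0.042 over the left-out libraries), OAZ2 after quantile normalization (0.000146), SLC3A2 after quantile normalization (0.10) and over the left-out libraries (-0.13 to 0.062), and CD44 after the length and GC correction (-0.047) and over the left-out libraries (-0.026 to 0.15). The cause was not tested.

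With a library left out, calls over the whole table ranged from 2092 to 3198 higher and from 2009 to 3197 lower, the lowest of both without CD104low replicate 1 and the highest without CD104low replicate 2. Member calls then ranged from 0 to 1 higher and from 3 to 8 lower, and those of the neighbouring pathway genes from 5 to 8 higher. Limma without the trend called 5 of these genes higher, against 9 as reported.

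Same-numbered libraries of the populations correlated at 0.084, 0.359 and 0.324 in their deviations from the group means. The first was too low to take the numbers as pairs, although each library correlated best with its own number, a hint from the data and not the design. With the replicate block 7876 genes were called in all, against 6257, and among the members 1 was called higher (SMOX) and 7 lower, SMS being the added one. Depth limits PAOX the most, at 78 reads in the library with the fewest.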
